A study of Mus musculus with 7 samples.

Results

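Genes with 2 to 4 exons have the fewest exons among the multi-exon genes of the exon table, and their first, inner and last exons were compared between 2 library kits. Each row of the table is a piece of an exon, named by its gene and its exon number. All pieces of genes whose highest exon number was 2, 3 or 4 were taken, each exon was represented by its highest piece, and genes were kept when their exons summed to at least 100 normalized counts in every library. Of 10928 genes with 2 to 4 exons, 558 passed this limit: 125 with 2 exons, 171 with 3 and 262 with 4. They hold 1811 exons and 5341 pieces, of 264860 exons and 437023 pieces of 41725 genes in the whole table. The same limit left 6217 genes with 2 or more exons, and the first-to-last comparison was fitted on all of them.

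The RNA came from hippocampal CA2 tissue that was cut out by laser from brains of naive male mice, 6 weeks old, of the strain labelled Amigo2-GFP C57BL/6, in which the fluorescence marks CA2 cells. All 4 libraries share this strain, age and tissue, and the cDNA shearing step of the NuGEN kit was left out. The paper ties a slight 5′ bias of its NuGEN coverage to this omission. It reports that the bias was corrected once shearing was included, with 1 locus as an example. This was not tested here. NuGEN PicoPure and NuGEN QIAGEN were made with the NuGEN Ovation kit from RNA extracted with the PicoPure and the QIAGEN kit, and Clontech PicoPure and Clontech QIAGEN with the Clontech SMARTer Stranded kit from the same kinds of RNA. There is 1 library per combination, so the 2 RNA samples take the place of replicates. The p-values measure the spread between these libraries only, and limma takes much of that spread from other genes. An effect of the kit cannot be told apart from that of the single preparation made with it.

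A messenger RNA is capped at its first exon, carries its poly(A) tail on its last, and in most protein-coding genes the last exon holds the 3′ untranslated region and is the longest. How evenly a library covers the exons of a gene depends on where cDNA synthesis starts and on how intact the RNA is. The NuGEN kit primes with random and poly-dT primers and removes ribosomal RNA after cDNA synthesis, whereas the Clontech kit primes with random primers on RNA from which ribosomal RNA was removed beforehand. In CA2, a small field of pyramidal neurons between CA1 and CA3, genes with few exons in the table include some of the ribosome, the respiratory chain, tubulins, neuropeptides and receptors.

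Coding sequences of 4 genes show what the first and the last exon hold. They are from GENCODE vM21 transcripts on GRCm38 (mm10), all in the 5′ to 3′ direction of the transcript, and capitals mark the start or the stop codon. Tubb2a and Pcsk1n carry the start codon in exon 1 and the stop codon in the last exon. In Bex2 and Neurod6 the whole coding sequence lies in the last exon, so that a first exon without reads costs no coding base.
Tubb2a, exon 1 of 4, chr13:34077873-34077929, minus strand: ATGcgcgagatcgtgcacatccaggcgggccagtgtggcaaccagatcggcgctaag
Tubb2a, exon 4 of 4, chr13:34074468-34074527, minus strand: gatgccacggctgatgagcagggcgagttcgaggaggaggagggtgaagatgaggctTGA
Pcsk1n, exon 1 of 3, chrX:7919931-7919990, plus strand: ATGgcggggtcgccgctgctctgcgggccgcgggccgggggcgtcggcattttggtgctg
Pcsk1n, exon 3 of 3, chrX:7923044-7923103, plus strand: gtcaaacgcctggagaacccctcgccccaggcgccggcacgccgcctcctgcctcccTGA
Bex2, exon 3 of 3, chrX:136067143-136067202, minus strand: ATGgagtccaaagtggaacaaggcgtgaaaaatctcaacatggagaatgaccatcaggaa
Neurod6, exon 2 of 2, chr6:55679591-55679650, minus strand: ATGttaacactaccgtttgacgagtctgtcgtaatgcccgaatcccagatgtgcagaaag
G and C made up 63.2% of the Tubb2a stretch of exon 1, and 76.7% and 73.3% of the Pcsk1n stretches of exons 1 and 3.

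The gene table held 4548002 to 10417443 reads per library, with 5194138 and 4548002 in the NuGEN PicoPure and NuGEN QIAGEN libraries against 10417443 and 10176710 in the Clontech PicoPure and Clontech QIAGEN libraries. One read was worth 0.625 to 1.53 normalized counts in the exon table, so a value of a few counts rests on a handful of reads. The 6 CA2 markers of the marker list that were in the table summed to 12038 to 15071 normalized counts per library, the 4 oligodendrocyte markers to 2584 to 5896, and the 3 red blood cell markers to 0 to 60.4. Of these markers, Amigo2 is itself a gene with 2 exons.

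The first exon took a larger share of a gene's counts with the NuGEN kit, used here without shearing. Over the 558 genes its median share was 29.3% and 31.4% in the NuGEN PicoPure and NuGEN QIAGEN libraries, against 11.2% and 11.0% in the Clontech PicoPure and Clontech QIAGEN libraries. The kit means were 30.4% ± 1.42 for NuGEN and 11.1% ± 0.166 for Clontech (SD over the 2 RNA samples). Both NuGEN values lay above both Clontech values, but with 2 libraries against 2 the smallest two-sided p of an exact permutation test is 0.333, which is the value it gave. Between PicoPure and QIAGEN RNA the same test gave 1.0.

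The difference was seen at every exon number. In genes with 2 exons, exon 1 held a median of 33.9% and 39.3% in the NuGEN libraries (PicoPure, then QIAGEN RNA) and 13.7% and 13.3% in the Clontech libraries. In genes with 3 exons it held 31.5% and 34.5% with NuGEN, against 13.4% and 13.6% with Clontech. In genes with 4 exons it held 27.7% and 28.4% with NuGEN, against 9.61% and 9.00% with Clontech. The last exon moved the other way: in genes with 4 exons it held 30.3% and 25.6% with NuGEN, against 44.8% and 44.2% with Clontech. Exons 2 and 3 of these genes differed less, with 20.8% and 22.7% against 16.8% and 16.3% for exon 2 and 17.2% and 16.4% against 20.4% and 19.1% for exon 3. With NuGEN the share was thus highest at both ends and lowest inside, whereas with Clontech it was larger at each exon toward the 3′ end.

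**Figure D1:**
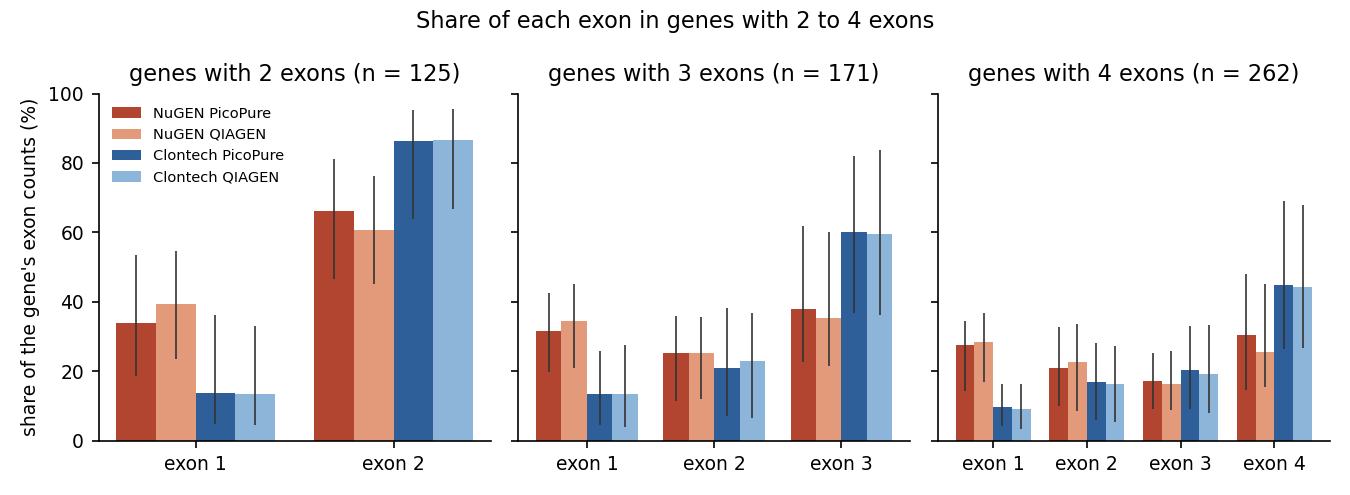
Share of each exon in the gene's counts summed over exons (vertical axis, percent) for genes with 2, 3 and 4 exons; bars are medians over genes for each of the 4 libraries, NuGEN in red and orange and Clontech in dark and light blue, and lines span the quartiles. Exon 1 of genes with 4 exons stands at 27.7% and 28.4% in the NuGEN bars and at 9.61% and 9.00% in the Clontech bars.

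Much of the difference lay in the first exon itself. The median normalized count of the first exon was 127 and 159 in the NuGEN libraries and 40.4 and 38.7 in the Clontech libraries, and the median difference was 1.86 on the log2 scale. For the last exon the medians were 148 and 177 with NuGEN, against 168 and 179 with Clontech, a median difference of -0.24. The mean of the inner exons, in the 433 genes that have them, lay between with a median difference of 0.68. These levels depend on the authors' library scaling, whereas a ratio within a gene does not.

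The log2 ratio of first to last exon, with 1 added to each count, had a median of -0.38 and -0.16 in the NuGEN PicoPure and NuGEN QIAGEN libraries and -2.26 and -2.37 in the Clontech PicoPure and Clontech QIAGEN libraries. The first exon exceeded the last in 231 and 262 genes with NuGEN and in 82 genes in each Clontech library. The spread over genes was wide in every library, with a range from the 10th to the 90th percentile of -2.89 to 1.95 in NuGEN PicoPure and -5.54 to 0.51 in Clontech PicoPure. The median difference between kits was 1.91 over genes, and 1.75 within PicoPure RNA and 1.98 within QIAGEN RNA.

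**Figure D2:**
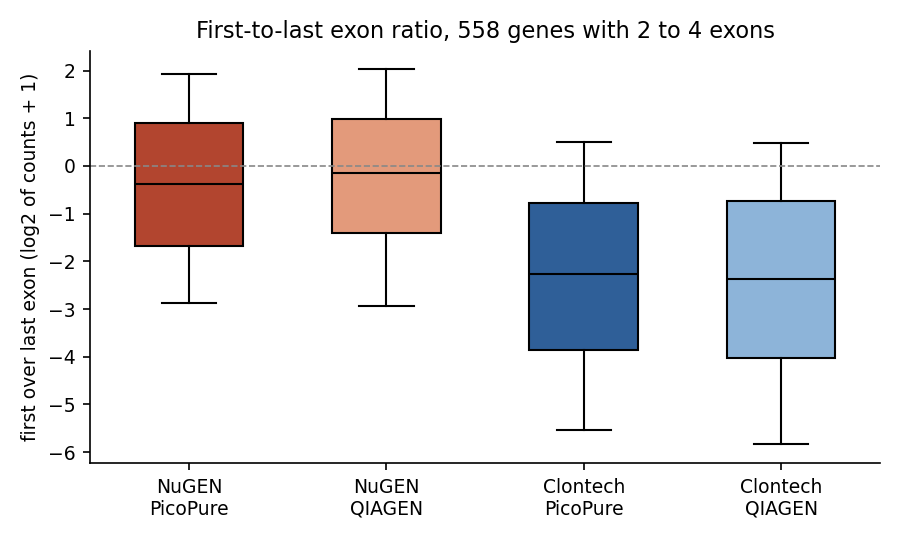
Log2 ratio of first to last exon (vertical axis, counts plus 1) over the genes with 2 to 4 exons in each of the 4 libraries; boxes span the quartiles, the line is the median and the whiskers reach the 10th and 90th percentiles. The NuGEN medians stand at -0.38 and -0.16, and the Clontech medians at -2.26 and -2.37.

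The ratio was higher in both NuGEN than in both Clontech libraries for 406 of the 558 genes (72.8%), against 62.2% of all 6217 genes, and lower in both for 38 (6.81%), against 8.67%. By limma with the Benjamini-Hochberg adjustment over all 6217 genes, 103 of the 558 rose with NuGEN (18.5%), against 9.84% of all genes, and 2 fell (0.358%), against 0.29%. At an unadjusted p under 0.05, 308 differed, a count for which the share over all genes is not given. The fit takes in 691 genes, 13 of them with 2 to 4 exons, whose first or last exon had no read in any library. In a fit without these, chosen after seeing the data, 289 of 545 rose (53.0%), against 39.1% of all genes, and 17 fell (3.12%), against 2.33%. The count was 0 higher with a limit of 10 summed counts, 46 with pieces summed, and it rests on single libraries: it was 0 higher without NuGEN PicoPure, NuGEN QIAGEN or Clontech QIAGEN and 116 higher without Clontech PicoPure, in fits of 3 libraries that also leave out the RNA sample.

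The share of calls lay near that of all genes where both end exons were well covered. With first and last exon both at a mean of at least 50 normalized counts, a limit chosen after seeing the data, 234 of 377 genes with 2 to 4 exons rose (62.1%), against 60.7% of all genes, and 15 fell (3.98%), against 4.41%. The median kit difference was 1.68 with 2 exons, 1.71 with 3 and 2.004 with 4, beside 1.79 with 5 exons, 1.86 with 5 to 29 and 1.35 with 30 or more. Over all 6217 genes it was 1.82. These differences between classes were not tested.

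Inner exons lay between the ends in the kit comparison. Relative to the first exon, the median log2 level of inner exons was -0.28 and -0.34 in the NuGEN libraries and 0.68 and 0.74 in the Clontech libraries. Relative to the last exon it was -0.61 and -0.40 with NuGEN, against -1.22 and -1.23 with Clontech. Against the mean log2 level of both ends, inner exons rose with NuGEN in 40 of 433 genes (9.24%), against 3.18% of 6092 genes with 3 or more exons, and fell in 100 (23.1%), against 25.6%, by limma. The median difference was -0.24, against -0.74 over all 6092 genes. In an edgeR test on reads, which compares summed reads rather than mean log levels, the median was 0.03, with 39 higher and 33 lower, so the sign of this median depends on the measure.

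The genes in which the ratio rose most were not alike in function. Bex2 (ENSMUSG00000042750.7, chrX:136066564-136068236), a small X-linked protein expressed in brain, had 500.2 and 823 normalized counts in its first exon in NuGEN PicoPure and NuGEN QIAGEN and none in either Clontech library. Its last exon had 759 and 1003 with NuGEN, against 328 and 385 with Clontech, so the transcript was read in all 4 libraries. Against a floor of 3 reads per Clontech library, its first exon was at least 341-fold higher with NuGEN in the mean over both RNA samples. The adjusted p for the first-to-last ratio was 0.037 (limma).

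Stmn1, which destabilizes microtubules, had 152 and 143 counts in the first exon with NuGEN and 2.67 and 9.999 with Clontech. Its last exon ran the other way, with 28.5 and 33.7 against 109 and 207, and the log2 ratio differed by 6.78 ± 0.84 (SE). Cnbp, a zinc finger protein that binds nucleic acids, had 150.3 and 393 counts in the first exon with NuGEN against 16.0 and 29.996 with Clontech, and 84.2 and 132 against 932 and 1132 in the last. The log2 ratio of Cnbp differed by 6.68 ± 0.44, that of the protein kinase gene Dyrk2 by 7.16 ± 0.74 and that of Enpp5, a member of the ectonucleotide phosphodiesterase family, by 5.65 ± 0.74. The kits did not overlap in any of the 5 genes, but these were picked as the largest differences that passed and moved alike in both RNA samples. Both NuGEN libraries also lay above both Clontech libraries in 72.8% of the 558 genes and 62.2% of all 6217.

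Only Pfn1 and the ribosomal RNA gene Rn18s-rs5 fell among the 558 genes. Pfn1, the actin monomer-binding protein profilin 1, had 2089 and 2395 counts in the first exon with NuGEN and 987 and 1154 with Clontech. Its last exon had 2598 and 3216 against 147 and 87.5, a difference of -3.59 ± 0.35 in the log2 ratio (adjusted p = 0.037, limma). In the table Pfn1 has 2 exons, the first of 2033 bases and the last of 372 in GENCODE vM21, whereas its coding transcript has 3: overlapping isoforms merge its first exons. Rn18s-rs5 had 303085 and 492772 counts in its last exon with NuGEN and 638 and 807 with Clontech. Its first exon had 38.9 and 75.1 counts with NuGEN, against 292 and 481 with Clontech.

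Several of the most abundant genes did not pass the test. Nrgn, the postsynaptic calmodulin-binding protein neurogranin, had 6198 and 7390 counts in the first exon with NuGEN and 732 and 952 with Clontech, and 8494 and 10118 against 1574 and 1255 in the last. Both ends thus had more counts with NuGEN, and the log2 ratio, which was -1.10 in Clontech PicoPure and -0.45 to -0.40 in the other libraries, differed by 0.30 ± 0.23. The polyubiquitin gene Ubb differed by -0.02 ± 0.13 and Tmsb4x, the actin monomer-binding thymosin beta 4, by 0.17 ± 0.15. Amigo2, an adhesion protein that marks CA2, had 586 and 759 counts in its first of 2 exons with NuGEN and 526 and 716 with Clontech, and 1488 and 1612 against 1772 and 1759 in its last (0.31 ± 0.21).

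**Figure D3:**
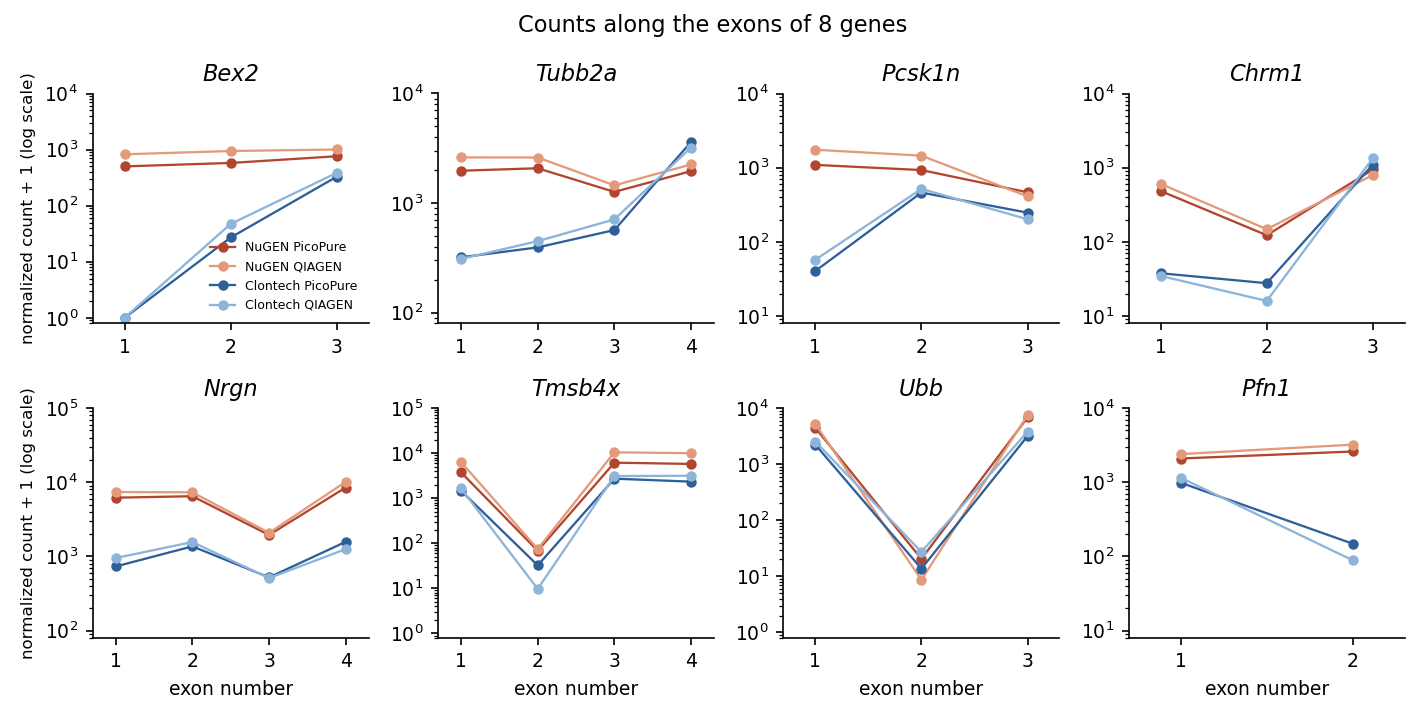
Normalized count plus 1 (log axis, scaled for each gene) against exon number for 8 genes, with 1 line for each library, NuGEN in red and orange and Clontech in dark and light blue. The Bex2 first exon stands at 0 counts in both Clontech libraries and at 500.2 and 823 with NuGEN, both end exons of Nrgn, Tmsb4x and Ubb lie higher in both NuGEN libraries, and the last exon of Pfn1 stands at 147 and 87.5 with Clontech.

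Tubulins had one of the higher medians among the lists. All lists hold only genes with 2 to 4 exons, of which 18.5% rose and 0.358% fell, beside the shares of all genes given for each list. Of 7 tubulins, the subunits of microtubules, 4 rose and none fell, against 9.84% of all genes higher and 0.29% lower (median log2 difference 2.99, against 1.82 over all genes): Tubb2a, Tubb2b, Tubb4b and Tubb5, the last 3 named after their values were seen. Tubb2a had 1972 and 2610 counts in exon 1 with NuGEN, against 319 and 308 with Clontech, and 1955 and 2250 against 3612 and 3208 in exon 4 (3.55 ± 0.18, adjusted p = 0.036, limma). Tuba1a did not pass (1.08 ± 0.29). Tubb4a gave -1.07 ± 0.27, but 1.72 when the highest piece was taken in each library and 1.45 when pieces were summed, so its direction depends on how pieces stand for an exon. Tubulin genes are close in sequence, and how reads matching several of them were assigned was not tested.

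Of the 9 genes of the calmodulin-binding and growth cone list 3 rose and none fell, against 9.84% and 0.29% of all genes (median 0.75, against 1.82). These were Stmn1, Camk2n1 and Pea15a, of which the last 2 were named after their values were seen. The list is mixed in function, so these calls are no result about calmodulin binding. Vsnl1, a neuronal calcium sensor, gave -1.0004 ± 0.33, and Basp1, a membrane protein of growth cones, -0.28 ± 0.21. Neither passed.

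Secreted neuronal proteins were few but differed widely between kits. Of the 3 genes of the neuropeptide and granin list, 2 rose and none fell, against 9.84% and 0.29% of all genes (median 3.87, against 1.82). Cck, the precursor of cholecystokinin, had 1445 and 1805 counts in the first exon with NuGEN and 111 and 68.1 with Clontech, while its last exon had 1624 and 2705 against 1946 and 1946 (4.09 ± 0.23, adjusted p = 0.037, limma). Pcsk1n, whose product proSAAS inhibits a prohormone convertase, had 1090 and 1745 against 39.4 and 56.2 in the first exon and 465 and 409 against 247 and 201 in the last (3.87 ± 0.34). Nrn1, the neurite growth factor neuritin, gave 3.63 ± 0.62 and stood at the threshold (adjusted p = 0.0502), which it did not pass.

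Many receptors and adhesion proteins of neurons carry their whole coding sequence in 1 long exon. Of 11 G protein-coupled receptors 2 rose, Chrm1 and Gpr22 (named after its values were seen), and none fell, against 9.84% and 0.29% of all genes (median 1.73, against 1.82). Chrm1, the muscarinic receptor M1, had 485 and 604 counts in its first exon with NuGEN and 36.8 and 33.7 with Clontech, while the last exon had 945 and 796 against 1102 and 1344 (4.39 ± 0.39). Adora1, the adenosine A1 receptor, gave 0.65 ± 0.37, and Gpr26 gave 1.73 ± 0.39. Of 12 leucine-rich repeat adhesion proteins 1 rose, Lingo3 (named after its values were seen), and none fell (median 1.90), a share near the 9.84% of all genes that rose. Slitrk3 and Slitrk5, synaptic adhesion proteins, gave 1.82 ± 0.56 and 0.98 ± 0.34 without passing.

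In the 4 voltage-gated potassium channels 1 rose (Kcna4, named after its values were seen), against 9.84% of all genes, with a median of 0.21. Kcna1 had no read in its first exon except 5.35 counts in Clontech PicoPure, beside 690.1 to 906 counts in its last exon over the libraries. The first exon of this gene is 62 bases long in GENCODE vM21. Among the named genes with a matching exon number, those of Rps15, with 31 bases, and Cst3, with 61, are shorter. The single histone gene, H3f3b, had no count in its first exon in any library, so its ratio says nothing about the kits.

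Among 6 neuronal transcription factors 2 rose and none fell, against 9.84% and 0.29% of all genes (median 1.03, against 1.82). Neurod2, a basic helix-loop-helix factor of cortical and hippocampal neurons, had 306 and 307 counts in exon 1 of 2 with NuGEN, against 37.4 and 26.2 with Clontech, and 1445 and 1984 against 757 and 877 in exon 2 (2.19 ± 0.32, adjusted p = 0.045, limma). Neurod6, of the same family, had 1571 and 2185 against 391 and 410 in exon 1 and 3644 and 4397 against 1830 and 2227 in exon 2 (1.22 ± 0.21, adjusted p = 0.048). None of the 5 immediate early genes passed. Arc, whose single coding exon is its first, gave 0.24 ± 0.33, Dusp5 1.15 ± 0.42 and Egr1 1.55 ± 0.75.

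Genes of translation and respiration had medians below that of all genes. So had every other list except tubulins, leucine-rich repeat proteins, and neuropeptides and granins. Of 23 cytosolic ribosomal proteins 1 rose, Rplp1 (2.26 ± 0.33), and none fell, against 9.84% and 0.29% of all genes (median 1.08, against 1.82), with Rpl28 at 0.26 ± 0.68 and Rps15 at 1.08 ± 0.81. Several of these genes have few exons in the table only because isoforms were merged. Rpl7, Rpl10, Rpl12 and Rps19 have transcripts of up to 7 exons in GENCODE vM21, whereas those of Rplp1 and Rps15 have at most 4. A first exon can thus span several exons of a transcript. Of 27 subunits of oxidative phosphorylation 4 rose and none fell, against the same shares (median 1.27): Atp5l, Ndufb10, Sdhd and Uqcrfs1, named after their values were seen. Atp5g3, a subunit of the membrane ring of ATP synthase, had 822 and 1188 counts in the first exon with NuGEN and 67.5 and 105 with Clontech, and 157 and 276 against 64.8 and 78.7 in the last (2.01 ± 0.44, adjusted p = 0.063). Of 14 ubiquitin, thymosin, ferritin and metallothionein genes 2 rose, Ppia and Fth1 (named after its values were seen), and 1, Pfn1, fell, against 9.84% and 0.29% of all genes (median 0.57). Ppia, the prolyl isomerase cyclophilin A, gave 2.20 ± 0.20.

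**Figure D4:**
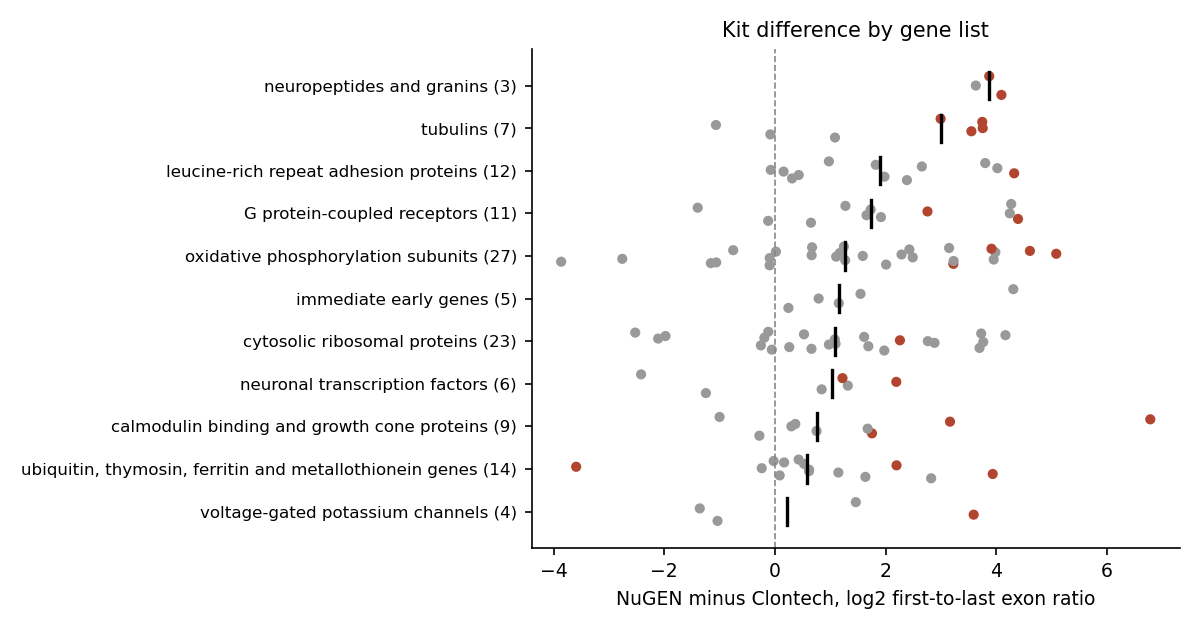
NuGEN minus Clontech difference of the log2 first-to-last ratio (horizontal axis) for each gene of the 11 lists with 3 or more genes (number in parentheses); red points passed at an adjusted p under 0.05, grey points did not, and the vertical bar is the median. Medians run from 0.21 in potassium channels to 3.87 in neuropeptides and granins, and 1 red point, Pfn1, lies left of 0.

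Inner exons stood out in a few of the named genes. Klf13, a Krüppel-like transcription factor, averaged 21.4 and 30.7 counts over its inner exons with NuGEN and 0.334 and 0 with Clontech, whereas both end exons were read in every library (adjusted p = 1.9e-14 for inner against end exons, limma). The annotated transcripts of Klf13 have at most 2 exons each in GENCODE vM21, and its 4 exons come from merging them. Inner exons fell relative to the ends in Tubb4a, whose last exon depends on the piece taken, by 2.56 on the log2 scale and in Pcsk1n by 1.66.

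Between the PicoPure and QIAGEN extractions the exon ratios differed little. The paper describes the PicoPure RNA as low in quality and the QIAGEN RNA as high, by RNA integrity number. The median log2 difference of first to last exon was -0.02, and -0.07 within NuGEN and -0.01 within Clontech. No gene with 2 to 4 exons passed in either direction in limma, against 0% and 0% of all 6217 genes, with 8 genes at an unadjusted p under 0.05 and no call in edgeR. Without genes whose end exon was at 0 throughout the counts were again 0 and 0 of 545, against 0.0543% higher and 0% lower of all genes. For inner against end exons 1 gene rose with PicoPure RNA, against 0.0328%, and none fell, against 0%. This was Degs1, the dihydroceramide desaturase, whose inner exons averaged 174 and 141 counts with PicoPure and QIAGEN RNA in NuGEN libraries and 80.9 and 8.12 in Clontech libraries (2.29 ± 0.48, adjusted p = 0.019, limma). Its last exon had 28.5 and 136 counts in the NuGEN pair and 168 and 119 in the Clontech pair, so the kits did not move alike.

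Gene totals, from the separate gene table, gave another readout of 557 of these genes. Totals of 177 rose with NuGEN (31.8%), against 10.8% of 13043 genes and 14% of the 6216 genes of this table with 2 or more exons that passed the same limit, and 45 fell (8.08%), against 10.5% and 18.6%, by limma. The median was 0.30, against -0.04 over all genes. The counts fell to 3 higher or fewer and 0 lower when any 1 library was left out with the RNA term, the fit then having 3 libraries.

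Most members of 2 lists of abundant small proteins rose in total. Over the 557 genes 31.8% rose and 8.08% fell, beside the shares of all genes given for each list. Of 27 oxidative phosphorylation subunits 23 rose and none fell, against 10.8% of all genes higher and 10.5% lower (median 1.73, against -0.04). Usmg5, a small subunit of ATP synthase, had 1063 and 2032 counts with NuGEN, against 102 and 205 with Clontech (3.34 ± 0.22, adjusted p = 7.5e-15). Cox8a, a subunit of cytochrome c oxidase, had 1439 and 1787 against 272 and 417 (2.25 ± 0.19). Of 14 ubiquitin, thymosin, ferritin and metallothionein genes 12 rose and none fell, against the same shares (median 1.64), and of 23 ribosomal proteins 7 rose and 1 fell (median 0.47), with Rpl28 at 1011 and 1299 against 94.3 and 178. Nrgn reached 15810 and 18646 with NuGEN, against 2875 and 3063 with Clontech (2.53 ± 0.10, adjusted p = 7.7e-22). Egr1, an activity-induced transcription factor, had 2352 and 2394 against 541 and 287 (2.59 ± 0.18).

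In the other lists, against the same 10.8% and 10.5% of all genes, 6 of 7 tubulins rose and 1 fell (median 0.68), and 2 of 3 neuropeptide and granin genes rose and none fell (0.73). H3f3b, the single histone gene, rose by 0.85 on the log2 scale. Of the 9 genes of the mixed calmodulin-binding and growth cone list 5 rose (0.46), of 6 transcription factors 3 (0.28) and of 5 immediate early genes 2 (0.26), and none fell. Of 12 leucine-rich repeat proteins 4 rose and 2 fell (0.14), of 11 G protein-coupled receptors 4 rose and 1 fell (0.11), and no potassium channel passed (0.01). Amigo2 had 2237 and 2264 against 2645 and 3065 (-0.34 ± 0.13, adjusted p = 0.0495, so that it fell), and Cnbp fell by 1.47 on the log2 scale, with 343 and 686 against 1203 and 1497.

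Gene totals followed the summed length of a gene's exons, merged over its isoforms, more closely than the exon ratio did. This sum can exceed the length of any 1 transcript. Of the 558 genes 529 were found by symbol in GENCODE vM21, and their merged exons were summed. Over the 557 genes with 2 to 4 exons 31.8% rose and 8.08% fell. Of 27 genes with under 1000 bases 17 rose with NuGEN and none fell, against 10.8% of all genes higher and 10.5% lower (median 1.40). Against the same shares, of 109 with 1000 to 1999 bases 55 rose and 1 fell (0.73), of 101 with 2000 to 2999 bases 37 rose and 5 fell (0.52), of 171 with 3000 to 4999 bases 43 rose and 21 fell (0.10), and of 121 with 5000 or more bases 15 rose and 16 fell (-0.09). Across the 529 genes, which share the 4 libraries, Spearman's rho was -0.45 between length and the kit difference of the total and 0.13 between length and that of the exon ratio. The kit difference of the ratio had a median of 1.08 under 1000 bases, 1.27 from 1000 to 1999, 2.26 from 2000 to 2999, 1.75 from 3000 to 4999 and 2.23 from 5000. The exon table held more reads than the gene table, so a read can count in several pieces, and in short transcripts a fragment can reach both ends. Its part in these values was not tested.

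**Figure D5:**
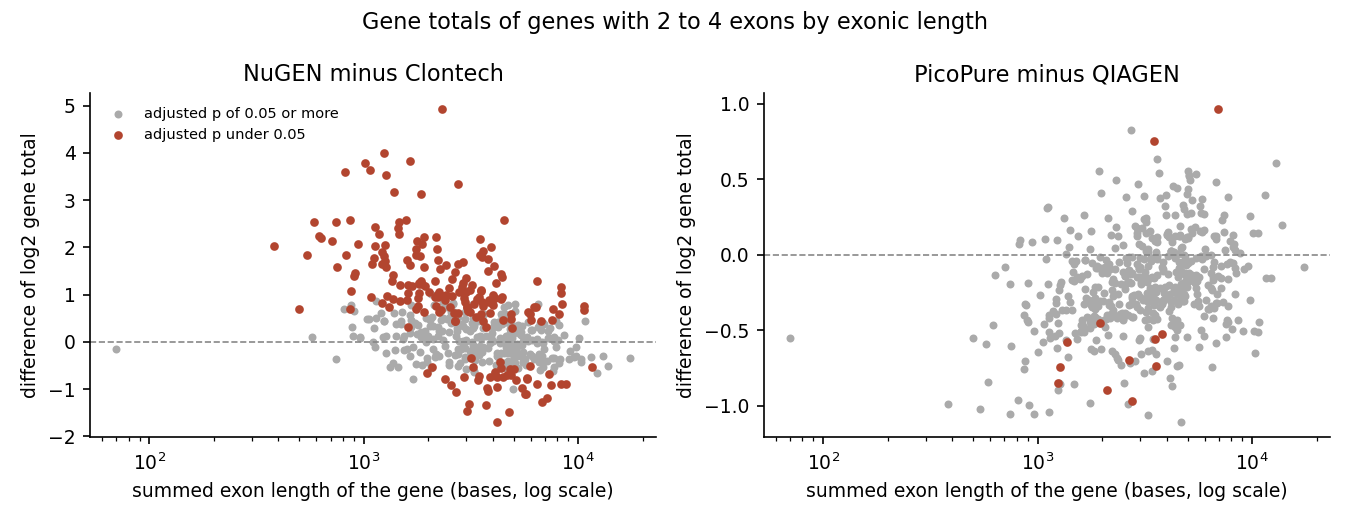
Difference of the log2 gene total (vertical axis; left, NuGEN minus Clontech; right, PicoPure minus QIAGEN) against the summed exon length of the gene (log axis, bases), 1 point per gene, with genes at an adjusted p under 0.05 in red. On the left the points under 1000 bases have a median of 1.40 and those from 5000 bases one of -0.09, and on the right the medians are -0.51 and -0.09.

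Between PicoPure and QIAGEN RNA, more totals of genes with 2 to 4 exons fell than rose. The median difference was -0.19, against -0.03 over all genes. In limma 11 of the 557 fell (1.97%), against 0.314% of all genes and 0.563% of those that passed the exon limit, and 2 rose (0.359%), against 1.45% and 2.41%. Tmsb4x had 9469 and 15687 counts with PicoPure and QIAGEN RNA in NuGEN libraries and 3953 and 5329 in Clontech libraries (-0.58 ± 0.10, adjusted p = 0.0003). Usmg5 (-0.97 ± 0.22), Ppia (-0.56 ± 0.12) and Vsnl1 (-0.45 ± 0.12) also fell. The 2 that rose, named after their values were seen, were Kctd16 (0.75 ± 0.16) and Samd5 (0.96 ± 0.26). By length the median was -0.51 under 1000 bases, -0.33 from 1000 to 1999, -0.24 from 2000 to 2999, -0.16 from 3000 to 4999 and -0.09 from 5000 (Spearman's rho 0.32 over 529 genes). No gene passed in either direction once the kit was left out of the fit or any 1 library was left out. Oligodendrocyte markers summed to 3722 and 5896 counts with PicoPure and QIAGEN RNA in NuGEN libraries and to 2584 and 3784 in Clontech libraries, and astrocyte markers to 1505 and 2139 and to 1660 and 1869. Their part in these totals was not tested. In tissue samples fewer cells of a type and less RNA per cell cannot be told apart.

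Genes near the count limit rest on few reads. Just inside it were Slc35a4, Snrpd1 and Cox7c, whose lowest summed counts were 100.25, 100.61 and 100.91, with kit differences of the log2 ratio of -1.13, 2.39 and -2.76. Just outside were Higd2a, Tmem169 and Pnma2, with 99.6, 99.7 and 99.8. The first exon of Pnma2 had 22.0 and 35.3 counts with NuGEN, against 0 in both Clontech libraries, and that of Tmem169 25.9 and 21.5 against 2.005 and 0.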

How the data were processed

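CA2 RNA of 4 RNA-Seq libraries was analysed; 3 further libraries of the series were not used here. The authors aligned paired reads to mm10 with STAR 2.4.1d, counted them with featureCounts on GENCODE annotation and divided them by DESeq2 size factors, so the deposited signal is a normalized count, and 100% of values above 0 were whole reads within 0.01 read. The exon table held 8682712 to 16701803 reads per library, more than the gene table, so a read can be counted in several pieces.

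The highest piece of each exon was that with the largest sum over the libraries. Tests were limma 3.58.1 (lmFit, eBayes with a trend on mean level) in R 4.3.3, with kit and RNA sample as additive terms and 1 residual degree of freedom, on log2(count + 1), adjusted over all genes and called under 0.05. Prior degrees of freedom were 2.80 for the first-to-last ratio, 111 for inner exons and 36.2 for gene totals. These fits thus take most of their spread from other genes, nearly all of it for inner exons and gene totals. Without genes whose end exon was at 0 the prior was infinite, so that fit takes its spread wholly from other genes. Gene totals needed 10 normalized counts in 2 libraries, without ribosomal RNA and mitochondrial genes. edgeR 4.0.16 and DESeq2 1.42.0 on recovered reads were alternatives. The fits were also run on simulated counts, drawn with the same dispersion for every gene and no difference between RNA samples. The outcome is not given here and cannot show how far calls hold in these libraries, whose spread may differ.

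Named genes were, in each direction, the 5 largest kit differences of the ratio that passed, moved alike in both RNA samples and averaged 500 counts; the 3 most abundant members of each list; Amigo2, Pcp4 and Nrgn where they are members; and the genes at the count limit. Predicted genes and clones were not named, and 1 gene that the rule picked is not reported here. Members and lists were chosen with earlier results of these data known. Exon numbers run 5′ to 3′: the length ratio of first to last exon followed the count ratio on the plus strand (Spearman's rho 0.63) and on the minus strand (0.69). Only 412 of 558 genes (73.8%) had the same exon number in GENCODE vM21, so checks on the length or GC content of single exons over all genes are void.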

Additional observations from a re-analysis of the deposited data

Results flagged for a closer look

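In 4 of 44 named genes the NuGEN minus Clontech difference of the log2 first-to-last ratio had opposite signs in the PicoPure and the QIAGEN RNA, and the difference between the RNA samples was not tested. Kcna1 gave a gap of -2.77 and rests on a first exon with reads in 1 library. Rpl28, a ribosomal protein, gave -0.54 and 1.06, a gap of -1.61. For Nrgn the gap was 0.70, with a log2 ratio of -1.10 in Clontech PicoPure and -0.45 to -0.40 in the other libraries, and for Ubb it was -0.17. Over all 558 genes the difference was positive in both RNA samples in 425, negative in both in 49 and of opposite sign in 84. Signs were not counted over all 6217 genes.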

How the results depend on the processing

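Over the genes with 2 to 4 exons, the kit median of the first-to-last ratio stayed above 0 in every alternative run, at 1.62 with a pseudocount of 10 and 1.76 to 1.97 without 1 library. Where no share over all genes is given, counts of calls in this section show only how they depend on the setting. They are then no result about genes with 2 to 4 exons. Calls of this ratio moved to 245 higher and 10 lower with a pseudocount of 10, 0 and 1 with a limit of 10 summed counts, 198 and 10 without the RNA term and 179 and 7 in edgeR. They moved to 234 and 15 with both ends at a mean of 50 and to 289 and 17 without genes with an end exon at 0, both chosen after seeing the data. There were 46 higher with pieces summed, 5 lower with a limit of 500, and 0 to 116 higher and 0 to 4 lower without 1 library. Tubb4a turned to 1.72 with the highest piece of each library and 1.45 with summed pieces. The PicoPure minus QIAGEN median of this ratio ran from -1.04 to 0.92 without 1 library, where kit and RNA are no longer balanced.

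For inner against end exons the kit median was 0.030 in edgeR, -0.14 with a pseudocount of 10, -0.23 with the highest piece of each library, -0.27 with both ends at a mean of 50, -0.32 with a limit of 500 and -0.34 with summed pieces, and -0.23 to -0.20 without 1 library. Calls were 20 higher and 47 lower with a limit of 500, 26 and 65 without the RNA term, 15 higher with summed pieces, 33 lower in edgeR, and 0 to 24 higher and 7 to 62 lower without 1 library. Between RNA samples the 1 call became 0 with a limit of 500, the highest piece of each library, summed pieces, the kit left out, edgeR and any 1 library left out, and 2 with both ends at a mean of 50, while the median was 0.034 with the highest piece of each library, 0.037 with summed pieces, 0.037 in edgeR and -0.14 to 0.15 without 1 library.

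For gene totals the kit median was 0.34 with TMM scaling, 0.345 in edgeR and 0.17 to 0.40 without 1 library, with 104 higher and 16 lower without the RNA term and 0 to 3 higher and 0 lower without 1 library. Between RNA samples there were 1 higher and 6 lower with TMM (median -0.15), 1 and 7 in edgeR (median -0.16), 1 higher in DESeq2, 0 and 0 with the kit left out and 0 and 0 without 1 library (median -0.36 to -0.021). The median share of the first exon was 27.4% in NuGEN PicoPure and 29.4% in NuGEN QIAGEN with summed pieces, and 26.7%, 29.5%, 9.10% and 9.23% in NuGEN PicoPure, NuGEN QIAGEN, Clontech PicoPure and Clontech QIAGEN with a limit of 500. By exon number it was 33.9%, 39.3%, 13.7% and 13.3% with 2 exons, 31.5%, 34.5%, 13.4% and 13.6% with 3, and 27.7%, 28.4%, 9.61% and 9.00% with 4, in the same order. The RNA sample pairs the kits in these fits, and the values without the RNA term are those of the unpaired fit. The causes of these shifts were not tested. With 4 libraries, and 0.625 to 1.53 normalized counts per read, differences in exons of a few counts were not detectable.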

Other observations

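The exon with the highest count was the first in 156 and 177 of the 558 genes in the NuGEN PicoPure and NuGEN QIAGEN libraries, and in 47 and 41 in the Clontech PicoPure and Clontech QIAGEN libraries. It was an inner exon in 115 and 125 genes with NuGEN and in 125 and 133 with Clontech, and the last exon in 287 and 256 with NuGEN and in 386 and 384 with Clontech. The number of genes led by an inner exon was thus close in all 4 libraries. Leading exons were not counted in genes with more exons.

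In 7 genes the first exon had no read in either Clontech library and at least 10 normalized counts in both NuGEN libraries, and in none was it the other way round. Besides Bex2 they included Cst3, which encodes the secreted protease inhibitor cystatin C, with 12.96 and 24.5 counts with NuGEN, and Mrpl52, a mitochondrial ribosomal protein, with 111 and 46.0. Against 3 reads per library, in the mean over both RNA samples, the first exon was at least 9.67-fold higher in Cst3. In Mrpl52 it was at least 40.6-fold higher, and both genes were chosen after their values were seen. With these 7 genes set at that floor the median kit difference over all 558 genes was 1.90. Such genes were not counted among all 6217 genes.

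An annotated transcript with more than 4 exons exists for 103 of the 529 genes found in the annotation, which means that overlapping isoforms merge exons in the table. Their median kit difference of the first-to-last ratio was 1.94, against 1.91 in the other 426.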
